A study of Homo sapiens with 8 samples.

Results

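Expression of 32 genes of fatty acid oxidation, and of its regulator PPARA with the targets of that receptor, was followed in HepG2 cells, a line derived from a human hepatocellular carcinoma. The genes were chosen by symbol, and their probe sets were those annotated to exactly 1 of the symbols. Of the 32 genes, 31 had such a probe set, 61 probe sets in all, out of 19775 genes and 54675 probe sets on the array. ACSL3 was not analysed here. The study exposed serum-starved cells to serum-free medium with quercetin (3 µM), a plant flavonol, or to serum-free medium alone as control, and took total RNA at 2, 4, 12 and 24 h. Each treatment and time gave 1 array, so there were 4 quercetin and 4 control arrays, and serum withdrawal was common to all 8. The labels do not say whether the arrays came from separate cultures. With 2 arrays at a time, 1 from each treatment, a p-value here measures the spread of a difference over times or over treatments, which may be technical, and says nothing of repeat cultures.

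Fatty acid oxidation removes carbon from an acyl chain in repeated rounds of dehydrogenation, hydration, a second dehydrogenation and thiolysis. In mitochondria, long chains enter through the carnitine shuttle, and the electrons of the acyl-CoA dehydrogenases pass to the respiratory chain through the electron transfer flavoprotein. Peroxisomes shorten very long and branched chains with a separate set of enzymes. In liver, the nuclear receptor PPARA, which fatty acids activate, pairs with RXRA on DNA and raises genes of both routes during fasting, together with genes for lipid droplet coats, fatty acid carriers and secreted hormones.

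The genes were divided by role. The mitochondrial class had 16 genes, all with a probe set, of which 15 passed the filter on dim genes, a mean above 7.43 on the log2 scale, the median of all probe sets. The peroxisomal class had 5 genes, all of them above that level. The class of targets and regulators had 11 genes, 10 with a probe set and 7 above the level. This left 27 members among 13298 genes tested. CREB3L3, PDK4, VNN1 and ETFDH were dim and were not tested in the main fit. Values below are log2 expression as deposited, and differences are on the log2 scale.

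Transcripts of hepatocyte markers read high on the arrays. The values of 6 hepatocyte markers, ALB, APOA1, APOB, SERPINA1, AFP and TTR, lay between 11.18 and 15.14, and those of 9 leukocyte, fibroblast and endothelial markers lay between 5.87 (CDH5) and 9.48 (COL1A1). HNF4A, also listed as a hepatocyte marker, had no probe set annotated to it alone. The arrays did not share a distribution of values: the SD within an array was 1.74 on both 4 h arrays, 1.90 and 1.95 on the quercetin and control arrays at 24 h, and between 1.79 and 1.86 on the others. Genes above the 75th percentile of brightness, 23 members among them, had a median difference from 2 h of -0.17 at 4 h and 0.19 at 24 h. The mean signal of the hybridisation spike-ins was 11.35 on the quercetin array at 12 h, 11.24 on the control array at 2 h and 11.19 on the control array at 12 h, and 11.83 to 12.11 on the other 5. The 18S rRNA signal was 12.01, 11.62, 7.29 and 9.16 on the quercetin arrays at 2, 4, 12 and 24 h, against 8.57, 11.52, 7.35 and 9.82 on the control arrays. The 3' minus 5' difference of ACTB, a sign of RNA integrity, was 1.11, 1.17, 0.88 and 1.39 on the quercetin arrays, against 0.88, 1.12, 1.40 and 1.36 on the control arrays. That of GAPDH was lowest on the 24 h arrays, at 0.42 with quercetin and 0.41 in control cells, and lay between 0.47 and 0.61 on the others. The part of these array differences in the results below was not tested, beyond the rescaled values given beside them. In a bulk measurement, fewer cells of a kind and less RNA per cell cannot be told apart.

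Quercetin left no member past the test. Over the 4 times, 0 of 27 members were called at an adjusted p of 0.05 (limma, Benjamini-Hochberg over 13298 genes), where 0 of all genes tested, 0.00%, were called. At an unadjusted p under 0.05 there were also 0 members, against 785 genes, 5.90% of all tested. The mean quercetin difference of a member lay between -0.15 (ANGPTL4) and 0.17 (CPT2). The class medians were -0.07 for mitochondrial genes, -0.04 for peroxisomal genes and -0.02 for targets and regulators, and all genes tested had a median of -0.03. The classes therefore lay within 0.05 of each other. The range of the quercetin arrays overlapped that of the control arrays in 27 of 27 members. These ranges span all 4 times, so changes over time widen them. The share over all genes was not computed, and the overlap says little about quercetin. By the same test 0 of 27 members had a quercetin difference at the late times, 12 and 24 h, unlike that at the early times, 2 and 4 h, where 49 genes, 0.368%, were called.

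**Figure D1:**
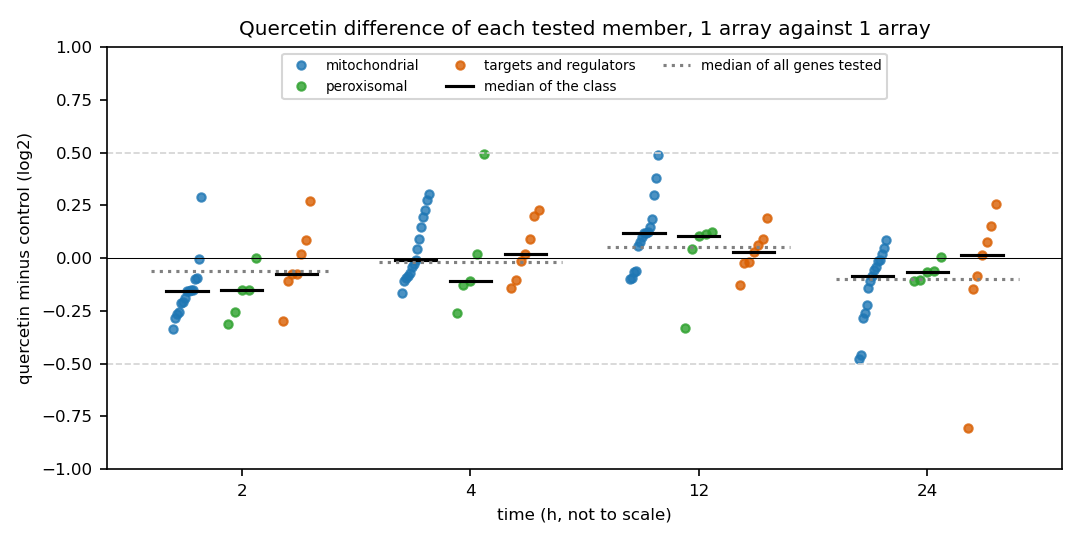
Quercetin minus control difference (log2, vertical axis) of each of the 27 tested members at 2, 4, 12 and 24 h (horizontal axis, not to scale), coloured by class. Each point compares 1 array with 1 array, black bars are class medians, the dotted line is the median of all genes tested, and the dashed lines mark 0.5 in size; the single point past them is ANGPTL4 at 24 h.

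The sign of the members' quercetin differences varied from time to time, as it did over all genes. At 2 h, 23 of 27 members read lower with quercetin, against 58.0% of all genes tested, and their median difference was -0.15. The 2 h pair also differed in 18S signal, 12.01 with quercetin against 8.57 in control cells, and in the ACTB 3' minus 5' difference, 1.11 against 0.88; their part in the result was not tested. At 4 h 14 members were lower, against 54.2% of all genes. At 12 h 8 were lower, against 40.7%, and at 24 h 19 were lower, against 66.2%. After cyclic loess, which removes differences between arrays that depend on brightness, the median over members was -0.02 at 2 h. Of the 27 members 4 kept 1 sign at every time, a share near that of all genes. DECR1 and SLC25A20 read lower with quercetin at all 4 times (9.28% of all genes did), and FGF21 and CYP4A11 read higher at all 4 (4.54%). The other probe set of CYP4A11, which was dim, gave 0.05, -0.07, -0.34 and -0.01 at 2, 4, 12 and 24 h.

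The carnitine shuttle genes CPT1A and CPT2 had the largest positive mean differences among mitochondrial members. CPT1A, the outer membrane acyltransferase that controls entry of long chains, read 11.06, 10.66, 10.80 and 11.06 with quercetin at 2, 4, 12 and 24 h, against 11.22, 10.39, 10.31 and 11.14 in control cells. The difference was positive at 4 h (0.27) and 12 h (0.49) and negative at 2 h (-0.16) and 24 h (-0.09), with a mean of 0.13 ± 0.12 (SE, adjusted p = 0.891, limma). CPT2, which re-forms the acyl-CoA inside, read 8.95, 8.84, 8.72 and 8.67 with quercetin, against 8.66, 8.54, 8.42 and 8.89 in control cells. CPT2 was 0.29 to 0.31 higher with quercetin up to 12 h and differed by -0.22 at 24 h, a mean of 0.17 ± 0.14 (adjusted p = 0.871). The other probe set of CPT2 gave a mean difference of -0.16, so the direction depends on the probe set, and the mean over the probe sets of CPT1A gave -0.04.

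ANGPTL4, a secreted inhibitor of lipoprotein lipase and a PPAR target, showed the widest difference at a single time among the brightest probe sets of the tested members. It read 8.26, 8.18, 7.99 and 8.58 with quercetin, against 7.99, 8.33, 7.90 and 9.38 in control cells. At 24 h the difference was -0.81. By brightest probe sets ANGPTL4 was the only tested member at least 0.5 apart at that time, where 8.65% of all genes were. The mean over the 4 times was -0.15 ± 0.16 (adjusted p = 0.899) and became 0.07 without the 24 h pair. Its second probe set differed by -0.29 at 24 h. Of the dimmer probe sets, 1 of FABP1 differed by 2.13 at 2 h and by -1.17 at 24 h, and 1 of HADHA by 0.97 at 12 h. Also past 0.5 were 1 of ACSL1 (-0.67 at 24 h), 1 of PPARA (0.57 at 12 h) and 1 of CPT1A (-0.61 at 2 h). The brightest probe sets differed by -0.07 and 0.02 for FABP1 and by 0.12 for HADHA at those times. Those of ACSL1, PPARA and CPT1A differed by -0.09, -0.13 and -0.16. By brightest probe sets no tested member was 0.5 apart at 2, 4 or 12 h, where 13.7%, 2.96% and 5.39% of all genes were. EHHADH at 4 h (0.49), CPT1A at 12 h (0.49), ACADS at 24 h (-0.48) and ECI1 at 24 h (-0.46) lay just under that size; all 4 were picked out after their values were seen.

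Among the other members, HADH and ECI2 had the most negative means after ANGPTL4. HADH, the dehydrogenase for short hydroxyacyl chains, read 10.61, 10.57, 10.97 and 10.87 with quercetin, against 10.89, 10.53, 11.04 and 11.13 in control cells, a mean difference of -0.14 ± 0.11 (adjusted p = 0.869, limma). ECI2, a peroxisomal isomerase for unsaturated chains, read 12.14, 11.88, 12.21 and 12.64 with quercetin, against 12.45, 12.01, 12.17 and 12.74 in control cells, a mean of -0.13 ± 0.09 (adjusted p = 0.867). FGF21, a fasting hormone secreted by liver, read 8.42, 8.50, 8.22 and 8.38 with quercetin, against 8.40, 8.28, 8.15 and 8.13 in control cells, a mean of 0.14 ± 0.13 (adjusted p = 0.891). PPARA itself differed by -0.11, 0.09, -0.13 and -0.15 at the 4 times.

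More members passed a test over time in serum-free medium than for quercetin. An F-test over the 4 times called 14 of 27 members (limma, adjusted p under 0.05), where 5064 genes, 38.1% of all tested, were called. The 14 were 8 of 15 mitochondrial genes, 3 of 5 peroxisomal genes and 3 of 7 targets and regulators. The count was 8 after cyclic loess, 6 of them among the 14, and 7 after quantile normalization, 4 of them among the 14, when 28.9% and 28.0% of all genes were called. Without the 24 h pair no member was called, where 725 genes, 5.45% of all tested, were called.

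Against 2 h, 6 of 27 members were called as higher at 24 h and 0 as lower, where 21.3% of all genes were called, 17.3% as higher and 3.98% as lower. The ACTB 3' minus 5' difference was also higher at 24 h, at 1.39 with quercetin and 1.36 in control cells, against 1.11 and 0.88 at 2 h, and its part in these calls was not tested. All genes called divided into 2302 higher and 529 lower in the deposited values. Under median centring there were 2642 higher and 373 lower, under cyclic loess 1451 and 958, and under quantile normalization 1176 and 887. The members called as higher were PLIN2, ANGPTL4, ETFA, HSD17B4, ECI2 and DECR1, that is, 2 members of each class. PLIN2, ETFA and ANGPTL4 were also called under all 3 rescalings. HSD17B4, ECI2 and DECR1 were not called after loess or quantile normalization, and other members, 4 after loess and 3 after quantile normalization, then passed the test as lower. At 12 h 1 member was called, FABP1, where 3.00% of all genes were, and at 4 h 0 members were, where 0.534% of all genes were and 12 members had an unadjusted p under 0.05, as did 17.7% of all genes.

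**Figure D2:**
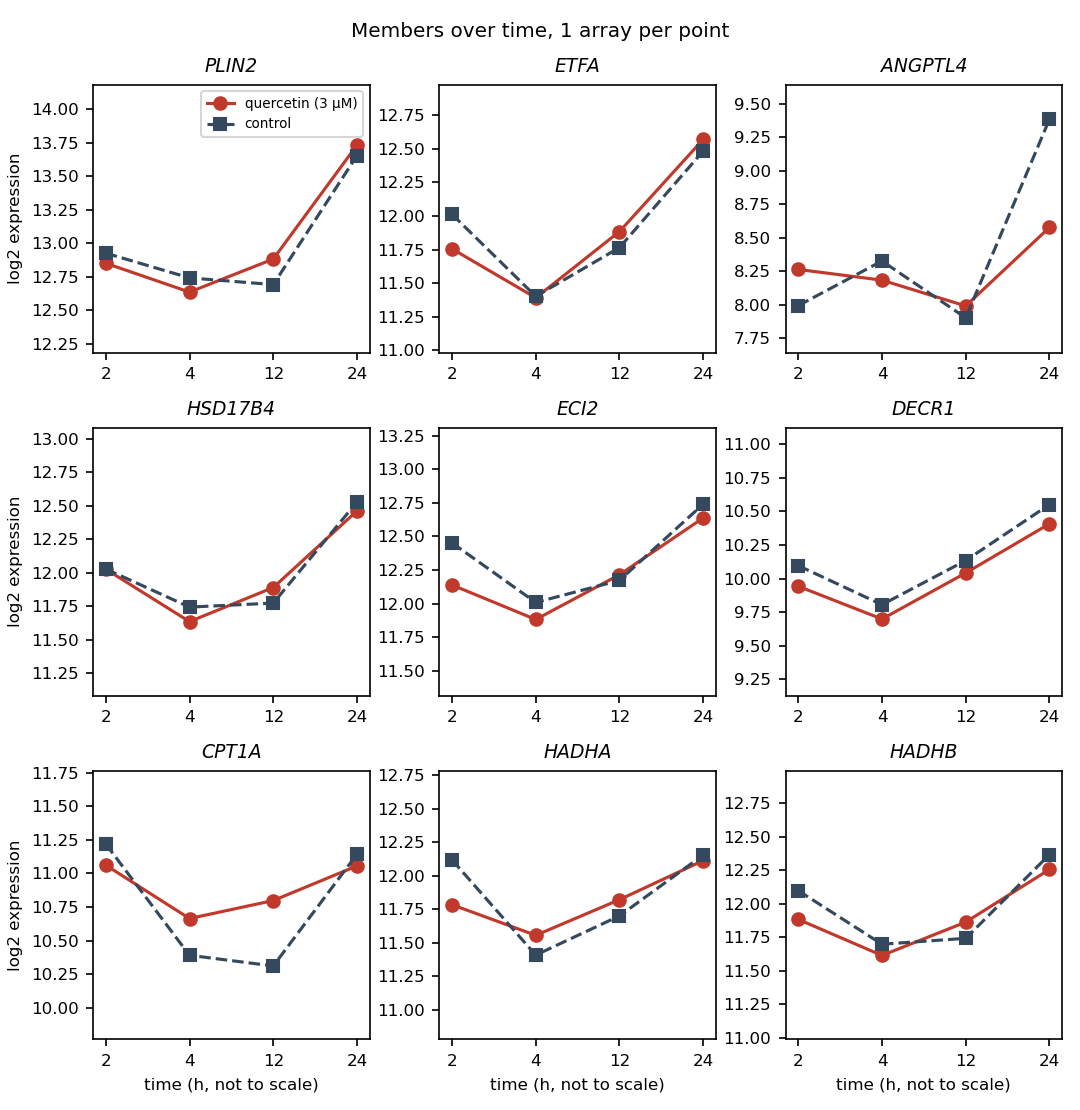
Log2 expression (vertical axis, the same span in every panel) of 9 members at 2, 4, 12 and 24 h (horizontal axis, not to scale), with quercetin (circles, solid line) and in control cells (squares, dashed line), 1 array per point and no error bars. PLIN2 and ETFA stand highest on both 24 h arrays, ANGPTL4 reaches 9.38 on the control array and 8.58 on the quercetin array at 24 h, and HADHA and HADHB are lowest at 4 h and highest at 24 h in both arms.

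Among mitochondrial genes ETFA was the one called at 24 h under every rescaling. ETFA, the alpha subunit of the electron transfer flavoprotein, read 11.76, 11.39, 11.88 and 12.57 with quercetin at 2, 4, 12 and 24 h, against 12.01, 11.40, 11.76 and 12.48 in control cells. Both 24 h arrays lay above the other 6. The rise from 2 h was 0.64 ± 0.13 at 24 h (1.56-fold, adjusted p = 0.00183, limma), with 0.82 in the quercetin arm and 0.47 in the control arm, and 0.42 after loess (adjusted p = 0.0120). Without the quercetin array at 2 h it was 0.48 (adjusted p = 0.0728), and without the quercetin array at 24 h 0.58 (adjusted p = 0.0532).

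Of the partners of ETFA, ETFB changed little and ETFDH was dim. ETFB, the beta subunit, had values between 13.52 and 13.86 on the 8 arrays and a 24 h difference of 0.12. ETFDH, the membrane enzyme that passes electrons from the flavoprotein to ubiquinone, read 6.73, 6.40, 6.76 and 7.45 with quercetin, against 6.98, 6.57, 6.94 and 7.67 in control cells. In the fit without the filter ETFDH was 0.71 ± 0.17 higher at 24 h than at 2 h (adjusted p = 0.00812), and its second probe set, also dim, was 0.69 higher. In the brighter probe set the quercetin difference of ETFDH was negative at all 4 times, between -0.25 and -0.17, as in 9.28% of all genes tested. The second probe set gave -0.39, 0.33, 0.01 and -0.13 at 2, 4, 12 and 24 h, so the sign depends on the probe set.

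In its brightest probe set CPT1A changed over the times (F-test adjusted p = 0.00559, limma) and was low in the middle of the course. Its second probe set ran the other way, with 7.82, 8.14, 8.44 and 7.82 with quercetin, against 8.06, 8.12, 8.20 and 7.87 in control cells, highest at 12 h in both arms. With the mean of the probe sets CPT1A was not called by the F-test. In the brightest probe set the difference from 2 h was -0.61 ± 0.17 at 4 h (adjusted p = 0.0851), -0.59 ± 0.17 at 12 h (adjusted p = 0.0669) and -0.04 at 24 h. After loess the 12 h difference was -0.54 (adjusted p = 0.0371) and after quantile normalization -0.53 (adjusted p = 0.0415), both past the threshold. SLC25A20, the carrier that exchanges acylcarnitine for carnitine across the inner membrane, read 9.31, 9.20, 9.52 and 9.03 with quercetin, against 9.46, 9.23, 9.61 and 9.05 in control cells. Both of its 24 h arrays lay below the other 6, and its 24 h minus 2 h difference was -0.34 (adjusted p = 0.183), or -0.50 after loess (adjusted p = 0.0453) and -0.46 after quantile normalization (adjusted p = 0.0691).

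HADHA and HADHB, the alpha and beta subunits of the mitochondrial trifunctional protein, followed nearly the same course and are neighbours in the genome. HADHA read 11.79, 11.56, 11.82 and 12.11 with quercetin, against 12.12, 11.41, 11.70 and 12.16 in control cells. HADHB read 11.88, 11.61, 11.86 and 12.25 with quercetin, against 12.10, 11.70, 11.74 and 12.37 in control cells. Each was lowest at 4 h and highest at 24 h in both arms, a course that 11 of 27 members shared, against 14.4% of all genes. The dimmest HADHA probe set read 10.79, 10.67, 11.10 and 11.34 with quercetin, against 10.85, 10.83, 10.13 and 10.95 in control cells, where it was lowest at 12 h. Both changed over the times in the deposited values (adjusted p = 0.00569 for HADHA and 0.00274 for HADHB), and neither passed the F-test after loess. At 24 h HADHA was 0.18 above 2 h (adjusted p = 0.391), and -0.04 from it after loess, while HADHB was 0.32 above (adjusted p = 0.0898).

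These genes are transcribed in opposite directions from start sites 307 bases apart on chromosome 2, and their promoters overlap. They are shown because the brightest probe sets of both genes had the same course, which was not particular to the pair. In RefSeq's GRCh38.p14 annotation the HADHA promoter is chr2:26244583-26244882 on the minus strand and the HADHB promoter is chr2:26244689-26244988 on the plus strand, each 250 bases before and 50 after the start, written 5′ to 3′. Capitals mark the 194 bases that the promoters share, read from opposite strands:
HADHA: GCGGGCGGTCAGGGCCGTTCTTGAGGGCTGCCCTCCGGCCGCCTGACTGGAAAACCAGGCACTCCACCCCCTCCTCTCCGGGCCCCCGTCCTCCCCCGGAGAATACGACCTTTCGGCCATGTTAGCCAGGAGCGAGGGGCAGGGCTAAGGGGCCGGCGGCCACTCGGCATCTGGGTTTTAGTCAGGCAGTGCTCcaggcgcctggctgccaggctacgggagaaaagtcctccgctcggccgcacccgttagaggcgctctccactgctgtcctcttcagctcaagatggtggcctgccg
HADHB: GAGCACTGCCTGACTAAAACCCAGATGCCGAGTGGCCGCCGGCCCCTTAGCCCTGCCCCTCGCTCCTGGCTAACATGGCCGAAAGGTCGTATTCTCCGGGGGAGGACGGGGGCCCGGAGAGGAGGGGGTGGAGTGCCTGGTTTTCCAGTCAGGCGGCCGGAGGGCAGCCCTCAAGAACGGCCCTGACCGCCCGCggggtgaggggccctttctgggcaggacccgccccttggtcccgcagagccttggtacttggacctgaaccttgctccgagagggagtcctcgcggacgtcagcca
Neither holds AGGTCA, the hexamer that PPARs bind as a direct repeat, on either strand.

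Of the acyl-CoA dehydrogenases, which start each round on chains of different length, none was called at 24 h in the deposited values. ACADVL, for very long chains, read 11.25, 11.25, 11.36 and 11.68 with quercetin, against 11.52, 11.06, 11.17 and 11.69 in control cells, and changed over the times (adjusted p = 0.0359, limma). Its 24 h difference was 0.30 (adjusted p = 0.166) and 0.49 without the control array at 2 h (adjusted p = 0.0489). ACADM, for medium chains, had values between 10.93 and 11.53 and differed by -0.16 at 24 h (adjusted p = 0.478). After loess and quantile normalization ACADM passed the test as lower, by -0.39 (adjusted p = 0.0297) and -0.42 (adjusted p = 0.0242). ACADS, for short chains, lay between 8.95 and 9.62, with a 24 h difference of 0.07.

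In their brightest probe sets the remaining mitochondrial enzymes stood at or near their highest on the 24 h arrays. DECR1, which reduces dienoyl chains, read 9.94, 9.70, 10.04 and 10.41 with quercetin, against 10.10, 9.80, 10.13 and 10.55 in control cells, and rose by 0.46 ± 0.16 (1.38-fold, adjusted p = 0.0494). After loess the DECR1 difference was 0.24 (adjusted p = 0.234), and the call was also lost when any 1 array at 2, 4 or 24 h was left out. ECHS1, the short-chain hydratase, read 11.78, 11.50, 11.85 and 12.11 with quercetin, against 11.97, 11.66, 11.80 and 12.17 in control cells. ACAA2, the thiolase, read 11.34, 10.99, 11.23 and 11.59 with quercetin, against 11.44, 11.06, 11.16 and 11.87 in control cells. ECHS1 (adjusted p = 0.0142) and ACAA2 (adjusted p = 0.00312) changed over the times in the deposited values and not after loess. Another ACAA2 probe set, also above the dim level, was lowest at 24 h in both arms, with a difference of -0.25 from 2 h. The dimmest ACAA2 probe set differed by 0.14. ECI1, the isomerase, had a 24 h difference of 0.44 (adjusted p = 0.0784), with 0.21 in the quercetin arm and 0.66 in the control arm.

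Of the 5 peroxisomal genes, HSD17B4 and ECI2 were called as higher at 24 h in the deposited values. HSD17B4, which carries the hydratase and dehydrogenase steps for branched and very long chains, read 12.03, 11.63, 11.89 and 12.46 with quercetin, against 12.03, 11.74, 11.77 and 12.53 in control cells. Its rise was 0.47 ± 0.13 (1.38-fold, adjusted p = 0.0119, limma), and 0.24 after loess (adjusted p = 0.0970). ECI2 rose by 0.39 ± 0.13 (1.31-fold, adjusted p = 0.0287), and by 0.18 after loess (adjusted p = 0.201). HSD17B4 was no longer called without either 24 h array or without the quercetin array at 2 h, with adjusted p between 0.0776 and 0.154. ECI2 was no longer called without either 24 h array, either 4 h array or the quercetin array at 2 h, with adjusted p between 0.0635 and 0.340.

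The other peroxisomal genes differed among themselves. ABCD3, a transporter of acyl chains into the peroxisome, read 12.00, 11.70, 11.97 and 12.28 with quercetin, against 12.15, 11.96, 11.86 and 12.27 in control cells, and changed over the times (adjusted p = 0.0435), but its 24 h difference was 0.20 in the deposited values and -0.02 after loess. ACAA1, the peroxisomal thiolase, lay between 12.02 and 12.54, with a 24 h difference of -0.09 (adjusted p = 0.683) and -0.31 after loess (adjusted p = 0.0342). EHHADH, the bifunctional enzyme, read 9.66, 9.42, 9.53 and 9.45 with quercetin, against 9.81, 8.93, 9.86 and 9.56 in control cells. Its lowest value was on the control array at 4 h. The change from 2 to 4 h was -0.24 in the quercetin arm and -0.88 in the control arm.

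Among the targets and regulators PLIN2 had the firmest time change. PLIN2, which coats lipid droplets, read 12.85, 12.63, 12.88 and 13.73 with quercetin, against 12.92, 12.74, 12.69 and 13.65 in control cells. Both 24 h arrays stood above the other 6 by at least 0.73 on the log2 scale. The rise from 2 h was 0.80 ± 0.11 (1.75-fold, adjusted p = 4.16e-05, limma), 0.88 in the quercetin arm and 0.73 in the control arm. It was 0.60 after loess (adjusted p = 0.000339), and PLIN2 was called whichever array or other time pair was left out. The other PLIN2 probe set, which is dim, read 7.00, 6.62, 6.32 and 6.15 with quercetin, against 6.91, 6.73, 6.34 and 6.20 in control cells, the opposite course, so the mean over both probe sets changed by 0.01 (adjusted p = 0.968).

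The 24 h call of ANGPTL4 rested on the control arm. From 2 h, ANGPTL4 rose by 0.85 ± 0.22 at 24 h (1.80-fold, adjusted p = 0.00927), with a difference of 0.31 in the quercetin arm and 1.39 in the control arm. Without the control array at 24 h the difference was 0.41 (adjusted p = 0.353), and without the control array at 2 h 0.57 (adjusted p = 0.146). Its second probe set read 8.16, 7.61, 8.15 and 8.47 with quercetin, against 8.21, 7.92, 7.84 and 8.77 in control cells, a 24 h difference of 0.44 from 2 h.

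FABP1, the abundant fatty acid carrier of the hepatocyte cytosol, was low at 12 h. It read 14.41, 14.31, 14.13 and 14.47 with quercetin, against 14.49, 14.33, 14.15 and 14.45 in control cells, and both 12 h arrays lay below the other 6. FABP1 fell by 0.31 ± 0.08 at 12 h relative to 2 h (adjusted p = 0.0447). The difference was -0.27 after median centring (adjusted p = 0.120), -0.19 after quantile normalization (adjusted p = 0.119) and -0.11 after loess (adjusted p = 0.476), so the call rests on the scaling. The second FABP1 probe set read 10.61, 10.52, 8.75 and 9.93 with quercetin, against 8.48, 10.23, 8.65 and 11.10 in control cells. It was lowest on the 3 arrays with the low spike-in signal, the quercetin array at 12 h and the control arrays at 2 and 12 h, and the part of that array difference was not tested.

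The FABP1 promoter is shown because it was the one promoter of a tested member that held AGGTCA. It lies at chr2:88128013-88128312 on the minus strand of GRCh38.p14 in RefSeq, from 250 bases before to 50 after the start, 5′ to 3′, and capitals mark AGGTCA on either strand:
FABP1: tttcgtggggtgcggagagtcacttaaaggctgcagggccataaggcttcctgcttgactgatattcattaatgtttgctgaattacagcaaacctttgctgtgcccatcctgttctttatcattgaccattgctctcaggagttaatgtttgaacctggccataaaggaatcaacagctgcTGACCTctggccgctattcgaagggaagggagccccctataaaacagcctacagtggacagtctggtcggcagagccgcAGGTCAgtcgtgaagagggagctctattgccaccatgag
The match on the opposite strand spans positions -68 to -63 from the start and the match on the gene's own strand spans 11 to 16. RefSeq promoters were matched to 26 members, 35 promoters in all, and 2 of the 35 held the hexamer on either strand, those of FABP1 and CREB3L3, against 13.8% of all 35116 promoters. The direct repeat of the hexamer with 1 base (N) between copies, on either strand and with any overlap counted, was in 0 of the 35 and in 0.0228% of all promoters. Only exact copies within these promoters were searched. Sites that vary from the hexamer or lie elsewhere were not covered, so the count does not show that a gene lacks one.

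ACSL1, which activates long chains to acyl-CoA, read 11.72, 11.57, 11.91 and 11.57 with quercetin, against 12.02, 11.55, 11.93 and 11.65 in control cells. The 24 h difference was -0.26 (adjusted p = 0.184, limma) in the deposited values, and ACSL1 passed the test as lower after loess (-0.49, adjusted p = 0.00515) and quantile normalization (-0.51, adjusted p = 0.00467). Its second probe set, also above the dim level, had a 24 h difference of 0.07 from 2 h in the deposited values. At 24 h that probe set read 9.71 with quercetin and 10.38 in control cells. CYP4A11, which hydroxylates the far end of the chain, read 8.32, 8.59, 8.28 and 7.96 with quercetin, against 8.23, 8.39, 8.25 and 7.81 in control cells. Both of its 24 h arrays lay below the other 6, with a difference of -0.39 from 2 h (adjusted p = 0.151). Its probe set is of the type whose probes can match related genes, and 3 further probe sets that name CYP4A11 with CYP4A22 were not used, so the CYP4A11 values are uncertain. FGF21 differed by -0.15 at 24 h, and PPARA, with values between 9.60 and 10.13, by 0.14.

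No dim target passed the test at 24 h. CREB3L3, a fasting-induced transcription factor of liver, lay between 6.12 and 6.94, with 6.94 on the quercetin array at 24 h against 6.41 on the control array, a difference of 0.52. PDK4, the kinase that turns pyruvate dehydrogenase off, lay between 5.90 and 6.12, and VNN1, a pantetheinase, between 6.01 and 6.30. In the fit without the filter their 24 h differences were 0.42, 0.08 and 0.15, with adjusted p of 0.142, 0.765 and 0.565 (limma). PPARA had 9 probe sets, and 1 of them differed by 0.75 at 24 h where the brightest differed by 0.14.

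Set side by side, each class had a median below 0 from 2 to 4 h in the deposited values, and no difference between classes was tested. From 2 to 4 h the medians were -0.27 for mitochondrial genes, -0.35 for peroxisomal genes and -0.13 for targets and regulators. In that step 15 of 15, 5 of 5 and 5 of 7 members were lower, against 8398 of 13298 genes and a median of -0.09. The 23 members above the 75th percentile of brightness had a median of -0.30. After loess the class medians were -0.09, -0.10 and 0.07, and after quantile normalization -0.08, -0.09 and -0.02.

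From 2 to 24 h the medians were 0.25, 0.20 and 0.01 for the same classes, with 11 of 15, 3 of 5 and 4 of 7 members higher, against 60.2% and a median of 0.09 over all genes. After loess the class medians were 0.01, -0.02 and -0.15 with -0.02 over all genes, and after quantile normalization -0.01, -0.03 and -0.10 with -0.03 over all genes. Both 24 h arrays lay above the other 6 for 14 of 27 members, against 29.6% of all genes, and both 4 h arrays below the other 6 for 14, against 17.4%. The medians of both steps were thus nearer to 0 after loess and quantile normalization for the mitochondrial and peroxisomal classes. The cause was not tested. Median centring, which moves only the level of an array, gave class medians of 0.31, 0.26 and 0.07 for 24 h against 2 h, and 0.15 over all genes.

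**Figure D3:**
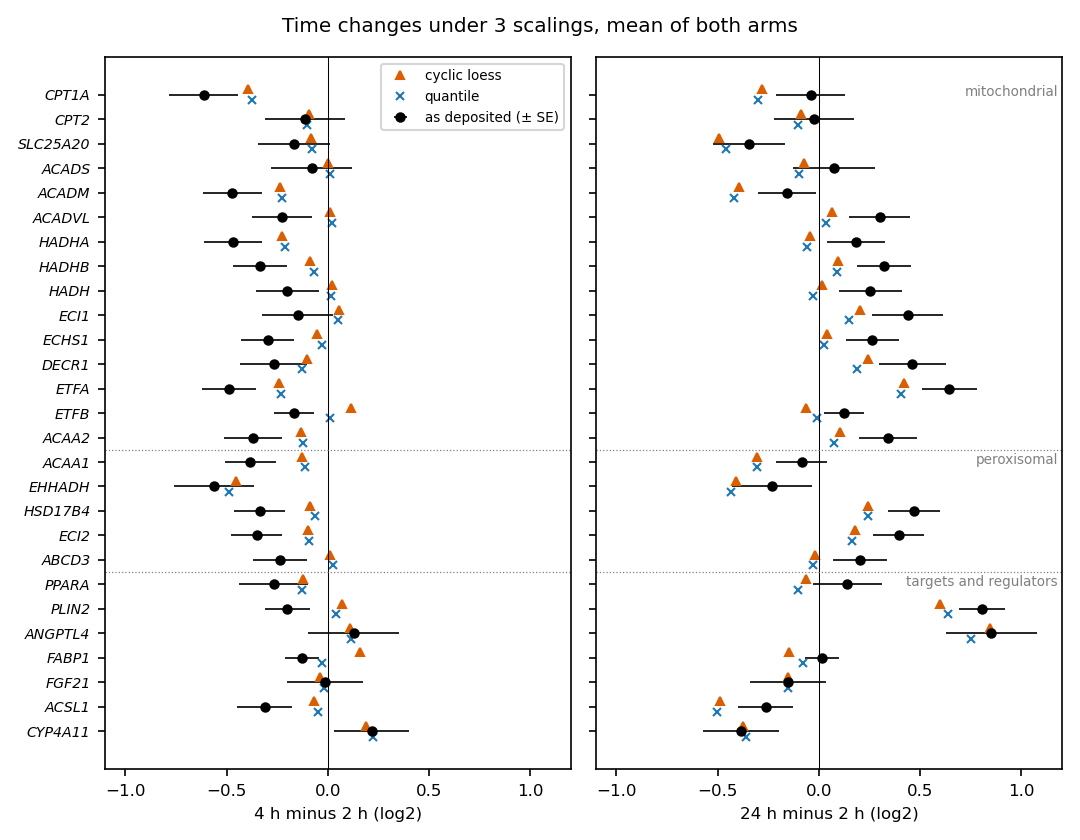
Difference from 2 h (log2, horizontal axes) at 4 h (left) and 24 h (right) for each tested member, down the page by class, in the deposited values (black points, bars are ± SE from limma over 8 arrays), after cyclic loess (triangles) and after quantile normalization (crosses). Most mitochondrial and peroxisomal points move towards 0 on rescaling, while PLIN2, ETFA and ANGPTL4 stay to the right of 0 at 24 h.

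Genes of the same pathway outside the 32, a list of 51 of which 39 had a probe set and 33 were tested, also gave 0 calls for quercetin. At an unadjusted p under 0.05 (limma) there were 3, where 5.90% of all genes tested were. These were TXNIP (mean difference -0.44), PEX11A (-0.37) and ACADSB (-0.24). TXNIP read 10.43, 10.61, 10.86 and 11.59 with quercetin at 2, 4, 12 and 24 h, against 11.64, 11.04, 10.95 and 11.60 in control cells. Its arms were furthest apart at 2 h and nearly equal at 24 h. At 24 h against 2 h, 4 of the 33 were called as higher and 2 as lower, where 17.3% and 3.98% of all genes were. PPARGC1A, the coactivator of PPARA, read 8.84, 8.78, 8.90 and 10.34 with quercetin, against 9.31, 8.25, 9.12 and 10.40 in control cells, a rise of 1.30 ± 0.21 at 24 h (adjusted p = 0.000198, limma). PPARG, the related receptor best known from fat cells, read 7.62, 7.81, 7.70 and 9.02 with quercetin, against 7.86, 7.39, 7.80 and 9.09 in control cells, a rise of 1.31 ± 0.20 (adjusted p = 0.000107). Both genes stood on the 24 h arrays more than 1 log2 unit above every earlier array. Before 24 h PPARG lay between 7.39 and 7.86, near the dim level of 7.43. Only the brightest probe set of each gene in this list is given here.

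ACSL5, an acyl-CoA synthetase, read 11.20, 10.83, 10.65 and 11.94 with quercetin, against 11.24, 10.94, 11.04 and 12.03 in control cells, a rise of 0.76 ± 0.15 (adjusted p = 0.000894). BDH1, which interconverts the ketone bodies, read 9.20, 8.85, 8.63 and 9.61 with quercetin, against 9.05, 8.55, 8.86 and 9.72 in control cells, a rise of 0.54 ± 0.19 (adjusted p = 0.0493). UCP2, a mitochondrial inner membrane carrier, read 11.21, 11.12, 11.57 and 10.35 with quercetin, against 11.42, 11.16, 10.81 and 10.38 in control cells. UCP2 fell by 0.95 ± 0.19 (adjusted p = 0.00108), and its lowest values were those of both 24 h arrays. ACACB, whose product malonyl-CoA inhibits CPT1A, read 10.46, 10.30, 10.15 and 9.87 with quercetin, against 10.03, 10.31, 10.30 and 9.51 in control cells, and fell by 0.55 ± 0.18 (adjusted p = 0.0326).

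After loess PPARG (1.35), PPARGC1A (1.15), ACSL5 (0.53), UCP2 (-1.19) and ACACB (-0.77) were still called, BDH1 (0.42, adjusted p = 0.130) was not, and CRAT, PHYH and AQP3 passed the test as lower. ACACB was not called after median centring (-0.49, adjusted p = 0.0602). At 12 h PEX11A, a peroxisome division protein and PPARA target, was the only gene of the 33 called. It read 8.61, 8.65, 9.51 and 9.03 with quercetin, against 9.02, 8.89, 9.83 and 9.54 in control cells, and rose by 0.86 ± 0.18 at 12 h (adjusted p = 0.0118, and 0.0107 to 0.0135 under the 3 rescalings). These calls were not tested with single arrays left out.

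**Figure D4:**
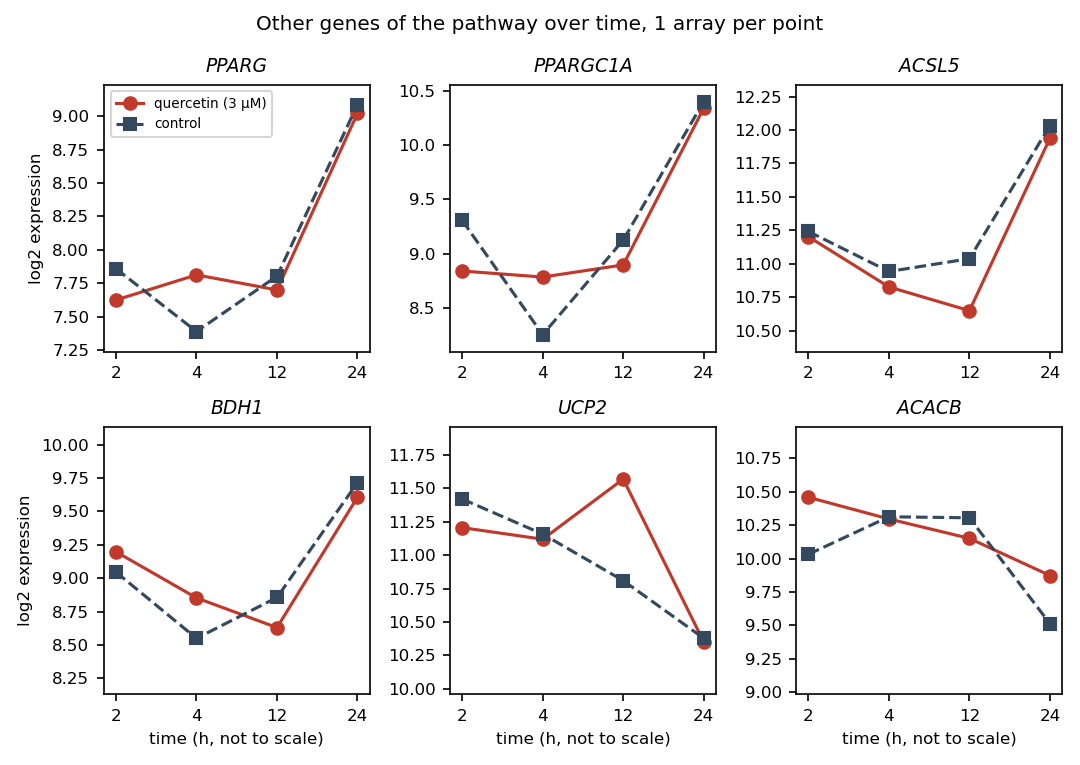
Log2 expression (vertical axes, spans differ between panels) of the 6 other pathway genes called at 24 h against 2 h, at 2, 4, 12 and 24 h (horizontal axis, not to scale), with quercetin (circles, solid line) and in control cells (squares, dashed line), 1 array per point and no error bars. On both 24 h arrays PPARG, PPARGC1A, ACSL5 and BDH1 are at their highest and UCP2 and ACACB at their lowest.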

How the data were processed

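The values deposited by the authors are log2 expression of 54675 probe sets on 8 arrays in 1 table. Per the submitters' processing notes RMA made them, with settings that the sources do not give. Of the probe sets, 62 were controls, 41091 had 1 gene symbol in the platform annotation (41037 updated by Entrez identifier), 1801 had several, and 11721 had none or were not listed. Each of 19775 symbols was represented by its brightest probe set, and the 13298 brighter than the median probe set were tested. Limma 3.58.1 in R 4.3.3 fitted time as 4 levels with treatment added, with a mean-variance trend and Benjamini-Hochberg adjustment over 13298 genes, leaving 3 residual degrees of freedom. A second model added treatment at 12 and 24 h. Single times were described by size, at 0.5 on the log2 scale. The code was tested on simulated data.

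The members, lists and tests were chosen with earlier results of these data known. Values on all 8 arrays are given for members called in any test, at least 0.5 apart at a time, or among the 3 largest differences in each direction. ACADM, ACAA1, EHHADH and ETFDH were described beyond that rule after their values were seen. Alternatives were the filter, the choice of probe set, median centring, cyclic loess, quantile normalization, the moderation of variances, no time block and leaving out arrays or time pairs. A block for the 3 arrays of low spike-in signal was added after seeing the data.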

Additional observations from a re-analysis of the deposited data

Results flagged for a closer look

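ACADM, the medium-chain acyl-CoA dehydrogenase, had 1 array far from the others of its treatment. With quercetin it read 11.32, 10.93, 11.26 and 11.29 at 2, 4, 12 and 24 h, and the gap between the 4 h array and the nearest other array was 0.839 of the whole range, above Dixon's 95% critical value of 0.829 for 4 samples. In control cells ACADM read 11.53, 10.97, 11.32 and 11.24, also lowest at 4 h, so the 4 arrays of a treatment differ in time as well as in sample. Of 54 such groups of 4 arrays over the 27 tested members, 1 was this uneven (1.85%), against 4.74% over all genes tested and about 1 in 20 by chance.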

How the results depend on the processing

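The 0 calls for quercetin over the 4 times held under each of the alternatives run, and the class medians moved by less than the spread over times. At 4 h against 2 h the count of members called ranged from 0 to 6 with an array or pair left out; it was 6 without the 12 h pair or either 12 h array, when 6.35% to 6.48% of all genes were called, and 3 without the quercetin array at 2 h, when 2.97% were, and the members were CPT1A, ACADM, HADHA, ETFA, ACAA1 and ECI2. At 12 h against 2 h the single call gave 0 with no filter, the mean of probe sets, gene-specific probe sets, median centring, eBayes without trend or array class as a block. Under those settings 0.368% to 2.57% of all genes were called. With arrays left out the count was 0 to 2. The 2 came without the quercetin array at 12 h, when 4.56% of all genes were called. At 24 h against 2 h the 6 calls became 3 with eBayes without trend, when 18.5% of all genes were called, and 2 to 8 with arrays left out. There were 2 without the quercetin array at 2 h or the control array at 24 h, when 7.16% and 7.95% of all genes were called. There were 8 without the 12 h pair, when 24.3% were. The F-test count of 14 was 8 with the mean of probe sets, 8 after cyclic loess and 7 after quantile normalization. Of all genes 25.6%, 28.9% and 28.0% were then called. With arrays left out the count was 0 (without the 24 h pair) to 20 (without the control array at 12 h), when 5.45% and 38.0% of all genes were called. The late against early count became 1, FABP1, with gene-specific probe sets, when 0.324% of all genes were called. Contrasts with a time could not be computed without its pair.

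Counts of members at least 0.5 apart at a single time were 1 at 2 h with the mean of probe sets or gene-specific probe sets, 1 at 4 h after median centring, loess or quantile normalization, and at 24 h 2 with no filter, 0 with the filter at the 75th percentile, 2 with the mean of probe sets and 0 at a size of 1. The shares of all genes under these settings are not given here, so these counts cannot be read as above or below them.

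For single members, 406 values kept their direction and side of the threshold, 34 lost the call, 9 gained it and 18 changed sign. For quercetin, CPT1A became -0.038 with the mean of probe sets and CPT2 -0.16 with gene-specific probe sets, and ANGPTL4 ranged from -0.29 to 0.072 with arrays left out. For 24 h against 2 h, FABP1 became -0.15 after loess and -0.078 after quantile normalization, and ranged from -0.021 to 0.048 with arrays left out. HADHA became -0.044 after loess and -0.060 after quantile normalization, and ranged from -0.022 to 0.39. ABCD3 became -0.021 and -0.031 under the same rescalings. CPT1A became 0.019 after median centring and 0.15 with the array class block, and ranged from -0.23 to 0.15. None of these values was called. The cause was not tested. With 2 arrays per time, and no replicate of a treatment at a time, small differences between treatments were not detectable.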
